A study of Rattus norvegicus with 4 samples.

Results

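The nuclear-encoded subunits of the respiratory chain and the ATP synthase were followed through 92 of the 17899 rat genes measured in osteoarthritic synovium, the tissue that lines the joint. Members were taken by symbol alone: symbols starting with Nduf and then a, b, c, s or v, with Uqcr, with Cox4 to Cox8 or with Atp5, and the 4 symbols Sdha, Sdhb, Sdhc and Sdhd. The rule uses symbols and no measured value, but it was set with earlier results of these data known. The symbols gave 36 genes of complex I, 4 of complex II, 8 of complex III, 18 of complex IV and 17 of complex V. They also took in 8 Ndufaf genes, which encode assembly factors and not subunits, and Ndufa4l2, a paralog of Ndufa4, and these 9 were kept apart. Ndufa4 was counted with complex IV, to which its protein belongs. Atp5s was kept with complex V by its symbol, although RefSeq now calls that gene Dmac2l, and RefSeq now calls the gene of the Atp5f1 row Atp5pb.

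Messenger RNA was measured in 4 bulk libraries, each from synovium of rats labelled as having osteoarthritis. For AdMSC 1 the joint tissue had been injected with human AdMSCs and for SyMSC 1 with human SyMSCs; the labels do not spell out these abbreviations. The tissue of PBS 1 and PBS 2 had received PBS, a saline solution. The tissue was taken 1 day after the cell injection, while the interval after PBS is not given in the sources used here, nor are the strain, age and sex of the animals or how osteoarthritis was brought about. PBS 1 carries the title word of the AdMSC library and PBS 2 that of the SyMSC library, and both PBS titles add the word mix, which is not explained. AdMSC 1 and SyMSC 1 together form the injected group (n = 2), which joins 2 cell sources, and PBS 1 and PBS 2 form the PBS group (n = 2). The labels do not state that each library is a different animal, and the p-values therefore rest on library-to-library spread that may be technical.

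Complex I takes electrons from NADH and complex II takes them from succinate, and both pass them to ubiquinone. Complex III hands them on to cytochrome c and complex IV to oxygen. Complexes I, III and IV pump protons across the inner mitochondrial membrane, and complex V, the ATP synthase, uses the returning protons to make ATP. Most subunits are encoded in the nucleus and a few in mitochondrial DNA, and these few were not analysed here. Several complex IV subunits exist as isoforms that replace each other by tissue, among them forms known from heart and skeletal muscle, from lung and from testis. Promoters of nuclear subunit genes are known for sites of NRF1, of ETS factors such as GABP, and of YY1.

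To show what the members share outside expression, RefSeq promoter windows of assembly GRCr8 were matched by gene ID, each with 250 bases before and 50 after the gene's start. Of the 92 members 80 had an entry. The NRF1 letters (GCGC, any 1 base, then TGCGC), searched on both strands like all motifs here, lay in 15 of the 80 windows (18.8%), against 4.25% of all 33469 rat windows of the same length. The ETS letters CCGGAAG lay in 22 (27.5%, against 8.75% of all) and the YY1 letters AAGATGG in 19 (23.8%, against 7.01%). At least 1 of these 3 lay in 46 windows (57.5%, against 18.0%). ETS and YY1 letters can share bases. A joined form, with the last AAG of the one as the first AAG of the other, lay in 0 member windows. It lay in only 6 of all 33469 windows (0.018%), so 0 among 80 says nothing about the members. The CCAAT box lay in 26 (32.5%, against 37.5%), ACGTG, the core of low oxygen response elements, in 23 (28.8%, against 19.3%), and TATAAA in 6 (7.5%, against 14.2%). The member windows held 56.4% G and C, against 52.7% over all windows, and a motif match is a description of letters and not a binding site. The 4 windows below belong to 3 genes that were higher and 1 that was lower after injection, and capitals mark the motif matches in each. Cox5a lies at chr8:66818034-66818333 (plus strand) and has ACGTG; Sdhd at chr8:59850592-59850891 (minus strand) has the ETS letters on the opposite strand, at 2 places; Uqcrc1 at chr8:118467973-118468272 (plus strand) has NRF1 letters, a CCAAT box and, over the start, YY1 letters; Cox6b2 at chr1:78122621-78122920 (plus strand) has 2 CCAAT boxes, the first on the opposite strand. All 4 are RefSeq windows of GRCr8, a different build from that of the expression values, written 5′ to 3′ on the gene's strand.
Cox5a: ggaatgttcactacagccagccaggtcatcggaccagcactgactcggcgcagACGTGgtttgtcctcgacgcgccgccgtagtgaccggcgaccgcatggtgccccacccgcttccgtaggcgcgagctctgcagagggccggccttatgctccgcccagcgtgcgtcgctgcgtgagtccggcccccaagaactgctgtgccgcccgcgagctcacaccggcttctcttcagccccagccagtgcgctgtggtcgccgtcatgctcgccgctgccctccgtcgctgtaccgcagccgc
Sdhd: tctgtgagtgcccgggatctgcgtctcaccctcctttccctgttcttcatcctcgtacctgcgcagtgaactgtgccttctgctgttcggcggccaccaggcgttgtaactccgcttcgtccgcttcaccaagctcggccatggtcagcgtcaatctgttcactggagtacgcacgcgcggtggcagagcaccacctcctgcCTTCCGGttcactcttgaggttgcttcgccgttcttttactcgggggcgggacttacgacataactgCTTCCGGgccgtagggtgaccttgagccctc
Uqcrc1: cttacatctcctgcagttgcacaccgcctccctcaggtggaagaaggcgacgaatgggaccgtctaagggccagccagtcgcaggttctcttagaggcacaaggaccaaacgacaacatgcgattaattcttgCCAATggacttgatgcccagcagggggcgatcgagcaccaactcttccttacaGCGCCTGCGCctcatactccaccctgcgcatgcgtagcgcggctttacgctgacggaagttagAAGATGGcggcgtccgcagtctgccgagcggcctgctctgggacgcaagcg
Cox6b2: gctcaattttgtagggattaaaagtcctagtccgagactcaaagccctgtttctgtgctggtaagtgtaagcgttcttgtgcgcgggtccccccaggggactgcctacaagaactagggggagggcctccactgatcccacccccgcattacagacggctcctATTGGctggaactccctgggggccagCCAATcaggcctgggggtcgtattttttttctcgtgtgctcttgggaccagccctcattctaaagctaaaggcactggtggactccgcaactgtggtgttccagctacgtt

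Counted from the start, with the first transcribed base as position 1, ACGTG in Cox5a began at position -197, the ETS letters in Sdhd at -48 and 20, the CCAAT box in Uqcrc1 at -117, its NRF1 letters at -64 and its YY1 letters at -1, and the CCAAT boxes in Cox6b2 at -87 and -61.

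Values are TPM, transcript abundances scaled by gene length and library total, which keep no read depth, so neither counting intervals nor a limit for a value of 0 can be given. Each library's values share 1 fixed sum, and each value is a share of the whole library. A gene was tested where it had at least 1 TPM in at least 2 libraries, which held for 13371 genes, and called where its limma adjusted p over all of them was under 0.05. The synovial lining gene Prg4 stood at 4192 TPM in AdMSC 1 and 2448 TPM in SyMSC 1, against 3930.3 TPM in PBS 1 and 3765 TPM in PBS 2. Markers of other tissues and cells differed between the libraries. Of all 13371 tested genes 23.7% were called higher and 24.7% lower, and the marker counts can be read against these shares. The summed level of 18 skeletal muscle markers was 192 TPM in AdMSC 1 and 267 TPM in SyMSC 1, against 2931 TPM in PBS 1 and 1062 TPM in PBS 2. PBS 1 was highest, and 6 of 16 tested markers were lower (37.5%). The summed level of 10 adipocyte markers was 546 TPM in AdMSC 1 and 685 TPM in SyMSC 1, against 883 TPM in PBS 1 and 2588 TPM in PBS 2. PBS 2 was highest, and 3 of 9 tested markers were lower (33.3%). Macrophage markers summed to 6817 TPM in AdMSC 1 and 8287 TPM in SyMSC 1, against 1686 TPM in PBS 1 and 1919 TPM in PBS 2 (8 of 9 higher), neutrophil markers to 2207 TPM in AdMSC 1 and 4076 TPM in SyMSC 1, against 383 TPM in PBS 1 and 137 TPM in PBS 2 (4 of 8 higher). All 7 endothelial markers were lower (183 TPM in AdMSC 1 and 139 TPM in SyMSC 1, against 588 TPM in PBS 1 and 648 TPM in PBS 2). Of 6 lining fibroblast markers, a list that includes Prg4, 4 were lower, with a median log2 change of -1.67. Of 8 sublining fibroblast markers 6 were lower. These 8 summed to 7855 TPM in AdMSC 1 and 5349 TPM in SyMSC 1, against 25224 TPM in PBS 1 and 19988 TPM in PBS 2. Of 6 erythroid markers 0 passed, also at an unadjusted p under 0.05. No gene of these 8 lists was at 0 in any library. In bulk tissue, fewer cells of a type and less RNA per cell cannot be told apart.

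The chain moved little as a whole. The members together held 22718 TPM in AdMSC 1 and 22252 TPM in SyMSC 1, against 20234 TPM in PBS 1 and 21053 TPM in PBS 2, that is 2.27% and 2.23% of all TPM in the injected libraries and 2.02% and 2.11% in the PBS libraries. Both injected sums lay above both PBS sums, at 22485 ± 329.5 TPM against 20643 ± 579 TPM (SD, n = 2 each), a ratio of 1.09. Of the 92 members 60 were at 100 TPM or more in every library. Ndufa10l1, Cox7a1 and Atp5f1 lay below the filter, and of the 89 tested members 16 were called higher and 4 lower, and 69 did not pass. The called share of 22.5% stands against 48.4% of all 13371 genes, and the shares by direction were 18.0% higher against 23.7% of all genes, and 4.49% lower against 24.7% of all genes. The median log2 change, injected over PBS, was 0.12 over the tested members and 0.00 over all tested genes, and 77 of the 89 members (86.5%) had a log2 change under 0.5 in size, against 50.3% of all genes. Both injected libraries lay above both PBS libraries for 42 members and below for 20, while 39.5% and 39.4% of all genes did so. Macrophage and neutrophil markers were higher in the same injected libraries, and their part in the members' values was not tested.

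Which library was used mattered for the counts. Without AdMSC 1, members called numbered 5 higher and 2 lower, without SyMSC 1 10 higher and 2 lower, without PBS 1 3 higher and 3 lower, and without PBS 2 6 higher and 4 lower, while 34.3% to 40.2% of all tested genes were called. Uqcrfs1, Cox5a, Cox4i2 and Cox6b2 were called under all 10 alternatives tried. The other 16 calls are given below with the library whose omission ended them. The promoter letters were spread over the calls: of the 15 matched members that were called higher after injection, 3 held the NRF1 letters, 4 the ETS letters and 3 the YY1 letters. Among the 53 matched genes of complexes I to V that did not pass the test the counts were 10, 16 and 14. The Ndufaf genes and Ndufa4l2 were left out of these counts. None of the 3 motifs lay in the windows of the 3 matched members that were called lower. No difference between these small sets was tested.

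**Figure D1:**
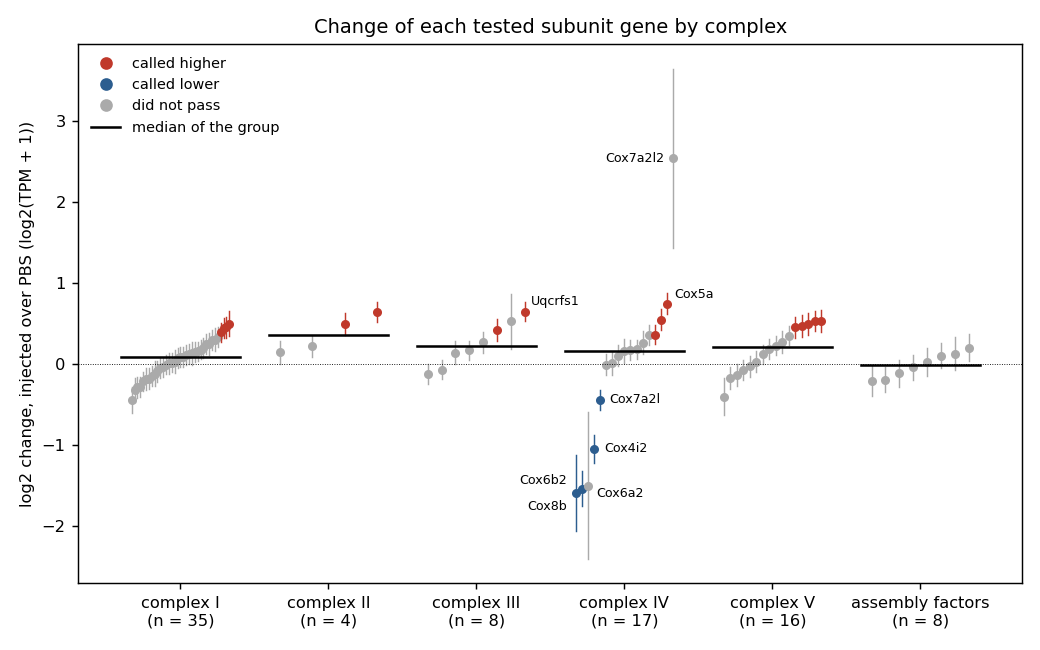
Log2 change, injected over PBS, on the log2(TPM + 1) scale (y axis) of every tested member, grouped by complex (x axis); each point is 1 gene, coloured by its limma call, and bars mark group medians. The complex I median sits near 0 (0.08) and that of complex II is 0.35, while complex IV spreads from -1.60 for Cox8b to 2.54 for Cox7a2l2, which did not pass.

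Complex I, the NADH dehydrogenase, kept nearly the same total. Its 36 genes summed to 6057 TPM in AdMSC 1 and 5964 TPM in SyMSC 1, against 5895 TPM in PBS 1 and 6048 TPM in PBS 2, so the groups overlapped, and the median log2 change of its 35 tested genes was 0.08. Limma called 4 of them higher (11.4%, against 23.7% of all tested genes) and 0 lower (against 24.7%). At an unadjusted p under 0.05 the counts were 5 and 1. All 35 had a log2 change under 0.5 in size. Ndufs1, the large iron-sulphur core subunit (NCBI Gene 301458), stood at 45.4 TPM in AdMSC 1 and 37.8 TPM in SyMSC 1, against 31.6 TPM in PBS 1 and 27.0 TPM in PBS 2. Both injected libraries were above both PBS libraries, and the gene rose (log2 change of 0.49, SE 0.15, limma adjusted p = 0.0397). The other 3 that rose encode accessory subunits. Ndufa12 stood at 276 TPM in AdMSC 1 and 243 TPM in SyMSC 1, against 189 TPM in PBS 1 and 191 TPM in PBS 2 (log2 change of 0.45, SE 0.13, limma adjusted p = 0.0301). Ndufab1, the mitochondrial acyl carrier protein, stood at 155 TPM in AdMSC 1 and 138 TPM in SyMSC 1, against 104 TPM in PBS 1 and 111 TPM in PBS 2 (log2 change of 0.44, SE 0.13, limma adjusted p = 0.0313). For both, each injected library was above each PBS library. Ndufa9 stood at 105 TPM in AdMSC 1 and 96.1 TPM in SyMSC 1, against 75.8 TPM in PBS 1 and 77.6 TPM in PBS 2 (log2 change of 0.38, SE 0.12, limma adjusted p = 0.0407), again without overlap. Leaving out AdMSC 1, PBS 1 or PBS 2 ended all 4 of these calls (limma adjusted p 0.0957 to 0.143, 0.057 to 0.189 and 0.106 to 0.197), and leaving out SyMSC 1 ended that of Ndufa9 (0.0542). Without the trend and robust options Ndufs1, Ndufa9 and Ndufab1 did not pass (0.052 to 0.0659), and without the filter Ndufs1 and Ndufa9 did not (0.0696 and 0.054).

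The other core subunits of complex I did not pass. Of the 7 core genes 1 was called (14.3%) and of the 28 accessory genes 3 were (10.7%), against 48.4% of all tested genes. Ndufv1, which carries the NADH site, was at 109 TPM in AdMSC 1 and 105 TPM in SyMSC 1, against 127 TPM in PBS 1 and 122 TPM in PBS 2 (log2 change -0.22), and Ndufs7, next to the ubiquinone site, at 207 TPM in AdMSC 1 and 226 TPM in SyMSC 1, against 206 TPM in PBS 1 and 226 TPM in PBS 2 (0.00). The NADH site gene was below PBS in both injected libraries, and Ndufs7 overlapped. Ndufb4 had the highest level of the complex, 514 TPM in AdMSC 1 and 525 TPM in SyMSC 1, against 656 TPM in PBS 1 and 616 TPM in PBS 2 (log2 change of -0.29, SE 0.12, limma adjusted p = 0.0896). The injected libraries were the lower ones, and under upper-quartile scaling the gene was called lower (limma adjusted p = 0.0494). RefSeq names 11 copies of Ndufb4, among which reads may have been divided. Ndufc1 had the lowest level of the tested genes, 33.9 TPM in AdMSC 1 and 34.4 TPM in SyMSC 1, against 30.4 TPM in PBS 1 and 25.2 TPM in PBS 2 (log2 change of 0.30, SE 0.14, limma adjusted p = 0.13). Ndufa1 had the most negative change of the complex, 70.5 TPM in AdMSC 1 and 85.6 TPM in SyMSC 1, against 96.3 TPM in PBS 1 and 117 TPM in PBS 2 (log2 change of -0.45, SE 0.16, limma adjusted p = 0.0611). Ndufa10l1 lay below the filter at 0.09 and 0.1 TPM in AdMSC 1 and SyMSC 1 and is listed at 0 in both PBS libraries.

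Complex II is succinate dehydrogenase, which also serves the tricarboxylic acid cycle. Limma called 2 of its 4 genes higher (50%, against 23.7% of all tested genes) and 0 lower (against 24.7%). The counts were the same at an unadjusted p under 0.05. The 4 genes summed to 726 TPM in AdMSC 1 and 660.4 TPM in SyMSC 1, against 505 TPM in PBS 1 and 545 TPM in PBS 2, without overlap of the groups and with a ratio of 1.32. Sdhd, a membrane anchor (NCBI Gene 363061), stood at 193 TPM in AdMSC 1 and 180.1 TPM in SyMSC 1, against 116 TPM in PBS 1 and 124 TPM in PBS 2. Both injected values were above both PBS values, and the gene rose (log2 change of 0.63, SE 0.12, limma adjusted p = 0.00765). Sdhb, the iron-sulphur subunit, stood at 266 TPM in AdMSC 1 and 241 TPM in SyMSC 1, against 171 TPM in PBS 1 and 189.9 TPM in PBS 2, again without overlap, and rose (log2 change of 0.49, SE 0.13, limma adjusted p = 0.0237). Sdha, the flavoprotein that oxidises succinate, stood at 83.4 TPM in AdMSC 1 and 87.7 TPM in SyMSC 1, against 68.9 TPM in PBS 1 and 78.8 TPM in PBS 2 (log2 change of 0.21, SE 0.13, limma adjusted p = 0.215). Both injected libraries were above PBS for Sdha too, but it did not pass. Sdhc, the other anchor, stood at 184 TPM in AdMSC 1 and 152 TPM in SyMSC 1, against 149.9 TPM in PBS 1 and 153 TPM in PBS 2 (log2 change of 0.14, SE 0.14, limma adjusted p = 0.435), where only AdMSC 1 was above the PBS libraries. The call of Sdhd ended without PBS 1 (limma adjusted p = 0.0559), and that of Sdhb without AdMSC 1 (0.0792), PBS 1 (0.146) or PBS 2 (0.0636).

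Complex III had 2 of its 8 genes called higher by limma (25%, near the 23.7% of all tested genes) and 0 lower (against 24.7%). The counts were the same at an unadjusted p under 0.05. The median log2 change of the complex was 0.21. Its sum was 1599 TPM in AdMSC 1 and 1548 TPM in SyMSC 1, against 1399 TPM in PBS 1 and 1497 TPM in PBS 2, injected above PBS. Uqcrfs1, the Rieske iron-sulphur protein (NCBI Gene 291103), stood at 179 TPM in AdMSC 1 and 165 TPM in SyMSC 1, against 112 TPM in PBS 1 and 107 TPM in PBS 2. It rose without overlap (log2 change of 0.64, SE 0.12, limma adjusted p = 0.00704). Uqcrc1, a core protein, stood at 128 TPM in AdMSC 1 and 129 TPM in SyMSC 1, against 87.9 TPM in PBS 1 and 105 TPM in PBS 2, also without overlap, and rose (log2 change of 0.41, SE 0.14, limma adjusted p = 0.0484). That call sat at the edge: it ended under upper-quartile scaling, without the filter, without the trend and robust options (limma adjusted p 0.0746, 0.0732 and 0.0752), and without any 1 of the libraries (0.0707 to 0.299). Uqcrc2, the partner core protein, was at 111 TPM in AdMSC 1 and 93.1 TPM in SyMSC 1, against 92.8 TPM in PBS 1 and 92.1 TPM in PBS 2 (log2 change of 0.14, SE 0.14, limma adjusted p = 0.436). The most abundant of the 8 was Uqcrq, a small subunit, at 388 TPM in AdMSC 1 and 369.9 TPM in SyMSC 1, against 328 TPM in PBS 1 and 349 TPM in PBS 2 (log2 change of 0.16, SE 0.12, limma adjusted p = 0.301). Uqcr10, another small subunit and the lowest, was uneven at 12.5 TPM in AdMSC 1 and 22.4 TPM in SyMSC 1, against 14.3 TPM in PBS 1 and 9.01 TPM in PBS 2 (log2 change of 0.52, SE 0.34, limma adjusted p = 0.261). SyMSC 1 alone stood apart there and the groups overlapped. A separate row, which RefSeq names as a pseudogene of Uqcr10, held far more, 212 TPM in AdMSC 1 and 203 TPM in SyMSC 1, against 186 TPM in PBS 1 and 186 TPM in PBS 2 (log2 change of 0.16, SE 0.12, limma adjusted p = 0.312), so the level of Uqcr10 is uncertain.

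**Figure D2:**
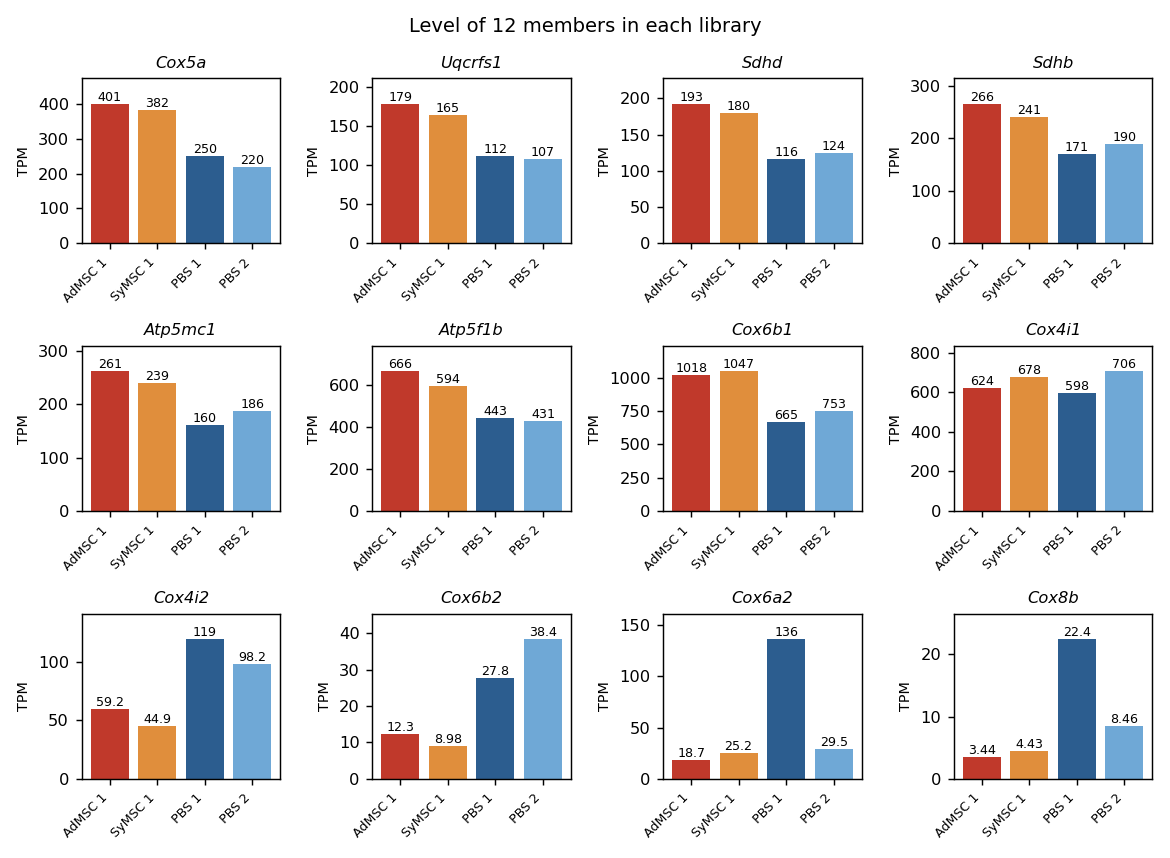
TPM (y axis, from 0, a separate scale in each panel) of 12 members in AdMSC 1, SyMSC 1, PBS 1 and PBS 2 (x axis); each bar is 1 library, so there is no error bar. Cox5a, Uqcrfs1, Sdhd and Sdhb have both injected bars above both PBS bars, Cox4i2 and Cox6b2 have both below, and for Cox6a2 PBS 1 alone is high at 136 TPM.

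Complex IV, cytochrome c oxidase, had genes called in both directions. Of its 17 tested genes 3 rose (17.6%, against 23.7% of all tested genes), 4 fell (23.5%, against 24.7%) and the test was not passed by 10. Both shares were a little below those of all genes, so calls in both directions do not set complex IV apart from all genes. The median log2 change was 0.15, and the sum was 6622 TPM in AdMSC 1 and 6541 TPM in SyMSC 1, against 5671 TPM in PBS 1 and 5858 TPM in PBS 2. Cox5a (NCBI Gene 252934), a small nuclear subunit on the matrix side, stood at 401 TPM in AdMSC 1 and 382 TPM in SyMSC 1, against 249.9 TPM in PBS 1 and 219.6 TPM in PBS 2. Both injected values lay above both PBS values, and it rose most of all called members (log2 change of 0.74, SE 0.13, limma adjusted p = 0.00537). Cox6b1, on the side facing cytochrome c, stood at 1018 TPM in AdMSC 1 and 1047 TPM in SyMSC 1, against 665 TPM in PBS 1 and 753 TPM in PBS 2, and rose (log2 change of 0.54, SE 0.13, limma adjusted p = 0.0149). Cox6c stood at 586 TPM in AdMSC 1 and 597 TPM in SyMSC 1, against 461 TPM in PBS 1 and 462 TPM in PBS 2, and rose as well (log2 change of 0.36, SE 0.12, limma adjusted p = 0.0457). Neither overlapped. The call of Cox6b1 ended without PBS 1 (limma adjusted p = 0.0851) or SyMSC 1 (0.0625). That of Cox6c ended under upper-quartile scaling (0.067), without the filter (0.0525), without the trend and robust options (0.0713) and without any 1 library (0.103 to 0.172).

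The general forms of the other paired subunits did not pass the test. Cox4i1, the common form of subunit 4, was at 624 TPM in AdMSC 1 and 678 TPM in SyMSC 1, against 598 TPM in PBS 1 and 706 TPM in PBS 2 (log2 change of 0.00, SE 0.14, limma adjusted p = 0.992). Cox8a was at 461 TPM in AdMSC 1 and 402 TPM in SyMSC 1, against 452 TPM in PBS 1 and 417 TPM in PBS 2 (log2 change of -0.01, SE 0.13, limma adjusted p = 0.95). Both overlapped between the groups. Cox6a1, the most abundant complex IV gene, was at 1543 TPM in AdMSC 1 and 1437 TPM in SyMSC 1, against 1283 TPM in PBS 1 and 1377 TPM in PBS 2 (log2 change of 0.16, SE 0.12, limma adjusted p = 0.309), and Cox7a2 at 321 TPM in AdMSC 1 and 299.9 TPM in SyMSC 1, against 278 TPM in PBS 1 and 272 TPM in PBS 2 (log2 change of 0.18, SE 0.12, limma adjusted p = 0.269). For both the injected libraries were the higher ones. Ndufa4 was at 149 TPM in AdMSC 1 and 142 TPM in SyMSC 1, against 127 TPM in PBS 1 and 145 TPM in PBS 2 (log2 change of 0.10, SE 0.13, limma adjusted p = 0.55), where AdMSC 1 alone was above both PBS libraries.

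Of the 4 members that fell, 3 are isoforms with restricted tissue patterns. Cox4i2 (NCBI Gene 84683), known from lung and from cells in low oxygen, stood at 59.2 TPM in AdMSC 1 and 44.9 TPM in SyMSC 1, against 119 TPM in PBS 1 and 98.2 TPM in PBS 2. Both injected values were below both PBS values and the gene fell (log2 change of -1.05, SE 0.18, limma adjusted p = 0.00466). Cox6b2, known from testis, stood at 12.3 TPM in AdMSC 1 and 8.98 TPM in SyMSC 1, against 27.8 TPM in PBS 1 and 38.4 TPM in PBS 2, and fell (log2 change of -1.55, SE 0.22, limma adjusted p = 0.00242), with PBS 2 the highest. Cox8b, known from muscle and brown fat of rodents, stood at 3.44 TPM in AdMSC 1 and 4.43 TPM in SyMSC 1, against 22.4 TPM in PBS 1 and 8.46 TPM in PBS 2, and fell (log2 change of -1.60, SE 0.47, limma adjusted p = 0.0474), with PBS 1 the highest. The Cox8b call ended without AdMSC 1 (limma adjusted p = 0.242) or SyMSC 1 (0.187), without the filter (0.0588) and with the title word as a block (0.0521). Its size rests in part on PBS 1, without which the log2 change was -0.95 (limma adjusted p = 0.0239). Cox6a2, the heart and skeletal muscle form, stood at 18.7 TPM in AdMSC 1 and 25.2 TPM in SyMSC 1, against 136 TPM in PBS 1 and 29.5 TPM in PBS 2 (log2 change of -1.51, SE 0.90, limma adjusted p = 0.266). Without PBS 2 it was called lower (log2 change -2.59, limma adjusted p = 0.000388), and without PBS 1 the change was -0.42 (0.194), so the size of the change rests on PBS 1. The row labelled Cox7a1, a muscle form, has an ID that the RefSeq table used here does not hold. It lay below the filter at 0.02 TPM in AdMSC 1 and 0.22 TPM in SyMSC 1, against 0.68 TPM in PBS 1 and 0.76 TPM in PBS 2. The row whose ID RefSeq names Cox7a1 stood under another symbol at 0.5 TPM in AdMSC 1 and 0.68 TPM in SyMSC 1, against 1.56 TPM in PBS 1 and 2.02 TPM in PBS 2, and was lower (log2 change of -0.81, SE 0.19, limma adjusted p = 0.0157). That call ended without AdMSC 1 (limma adjusted p = 0.0816), SyMSC 1 (0.0555) or PBS 2 (0.0515).

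Skeletal muscle markers summed highest in PBS 1 and next in PBS 2, the order also seen for Cox8b and Cox6a2; the marker list's part in these values was not tested. Among 3 tested brown adipocyte markers, 1 of them Cox8b itself, all 3 were lower, against 24.7% of all tested genes. Ucp1, the defining gene of brown fat, was listed at 0 in 3 libraries and at 0.07 TPM in AdMSC 1. Mural cell markers, a list of 10 vessel wall genes, were added after values had been seen. They summed to 614 TPM in AdMSC 1 and 445 TPM in SyMSC 1, against 1829 TPM in PBS 1 and 2125 TPM in PBS 2. All 10 were lower, against 24.7% of all tested genes. Cox4i2 was likewise below PBS in both injected libraries, as were the sums of other marker lists, among them endothelial and sublining fibroblast markers. Of the PBS libraries, PBS 1 was higher for Cox4i2 and the sublining sum, and PBS 2 for the mural and endothelial sums. The part of any of these cells in Cox4i2 was not tested. Cox7a2l, a factor that joins complexes III and IV into supercomplexes, stood at 208 TPM in AdMSC 1 and 217 TPM in SyMSC 1, against 277 TPM in PBS 1 and 306 TPM in PBS 2, and fell (log2 change of -0.45, SE 0.13, limma adjusted p = 0.0276), a call that ended without any 1 of the libraries (limma adjusted p 0.0626 to 0.179). Cox7a2l2, for which no role is given here, had 13.5 TPM in AdMSC 1 and 14.6 TPM in SyMSC 1, against 0 TPM in PBS 1 and 5.72 TPM in PBS 2 (log2 change of 2.54, SE 1.11, limma adjusted p = 0.159). Both injected values were above both PBS values, which themselves lay far apart; it was called higher without PBS 1 (log2 change 1.16, limma adjusted p = 0.00502) and without PBS 2 (0.000124), where the PBS library left is listed at 0 and no fold is given.

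As a share of an isoform pair Cox4i2, Cox6b2, Cox8b and Cox6a2 were lower in both injected libraries. Cox4i2 made up 8.67% of the summed Cox4i1 and Cox4i2 TPM in AdMSC 1 and 6.21% in SyMSC 1, against 16.6% in PBS 1 and 12.2% in PBS 2. Cox6b2 made up 1.19% and 0.850% of its pair in AdMSC 1 and SyMSC 1, against 4.01% and 4.85% in PBS 1 and PBS 2. Cox8b made up 0.741% and 1.09%, against 4.73% and 1.99%. These 3 shares did not overlap between the groups. Cox6a2 made up 1.20% and 1.72% in AdMSC 1 and SyMSC 1, against 9.60% in PBS 1 and 2.10% in PBS 2. That share did not overlap either, but PBS 2 was close to the injected libraries.

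**Figure D3:**
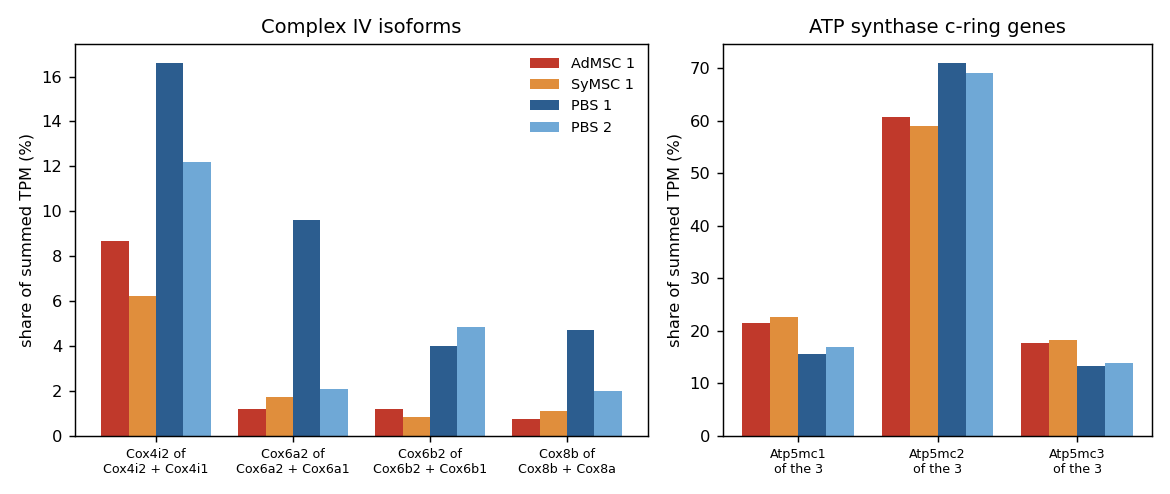
Share of the summed TPM of an isoform set (y axis, percent, from 0) taken by the named isoform in AdMSC 1, SyMSC 1, PBS 1 and PBS 2; each bar is 1 library. Cox4i2, Cox6b2, Cox8b and Cox6a2 are lower in both injected libraries than in both PBS libraries, Cox6a2 by little against PBS 2. Atp5mc2 is lower too, while Atp5mc1 and Atp5mc3 are higher.

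Complex V had 5 of its 16 tested genes called higher by limma (31.25%, against 23.7% of all tested genes) and 0 lower (against 24.7%). At an unadjusted p under 0.05 the counts were 6 and 0. The median log2 change was 0.20. The sum was 7492 TPM in AdMSC 1 and 7328 TPM in SyMSC 1, against 6541 TPM in PBS 1 and 6892 TPM in PBS 2. Atp5f1b, the catalytic beta subunit of the F1 head (NCBI Gene 171374), stood at 666 TPM in AdMSC 1 and 594 TPM in SyMSC 1, against 443 TPM in PBS 1 and 431 TPM in PBS 2. It rose without overlap (log2 change of 0.52, SE 0.13, limma adjusted p = 0.0163). Atp5f1a, the alpha subunit beside it, stood at 341 TPM in AdMSC 1 and 305 TPM in SyMSC 1, against 217 TPM in PBS 1 and 249 TPM in PBS 2, and rose (log2 change of 0.47, SE 0.14, limma adjusted p = 0.0328). The head's gamma, delta and epsilon genes, Atp5f1c, Atp5f1d and Atp5f1e, had log2 changes of 0.26, 0.34 and -0.03 and did not pass. Atp5if1, an inhibitor of ATP hydrolysis by the enzyme, stood at 564 TPM in AdMSC 1 and 625 TPM in SyMSC 1, against 420.0 TPM in PBS 1 and 451 TPM in PBS 2, and rose (log2 change of 0.45, SE 0.13, limma adjusted p = 0.0293). For the alpha subunit and the inhibitor each injected library was above each PBS library. Of the membrane and stalk genes none passed: 0 of 3 in the membrane group and 0 of 3 in the peripheral stalk by limma, and 0 in each at an unadjusted p under 0.05. Atp5mf, a membrane subunit and the most abundant member of all, was at 1388 TPM in AdMSC 1 and 1419 TPM in SyMSC 1, against 1451 TPM in PBS 1 and 1513 TPM in PBS 2 (log2 change of -0.08, SE 0.12, limma adjusted p = 0.61), and Atp5s, the lowest tested member, at 2.15 TPM in AdMSC 1 and 1.49 TPM in SyMSC 1, against 2.27 TPM in PBS 1 and 3.22 TPM in PBS 2 (log2 change of -0.41, SE 0.23, limma adjusted p = 0.179). Atp5f1 is listed at 0 in every library but AdMSC 1, where it had 4.93 TPM, and was not tested. RefSeq names 3 copies of this peripheral stalk gene. Reads may have been divided among them, so its level is uncertain.

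The c ring, which turns in the membrane, is built from 1 protein made by 3 genes, and these divided. Atp5mc1 (NCBI Gene 29754) stood at 261 TPM in AdMSC 1 and 239 TPM in SyMSC 1, against 160.2 TPM in PBS 1 and 186 TPM in PBS 2, and rose (log2 change of 0.53, SE 0.14, limma adjusted p = 0.021). Atp5mc3 stood at 215 TPM in AdMSC 1 and 193 TPM in SyMSC 1, against 137 TPM in PBS 1 and 153 TPM in PBS 2, and rose (log2 change of 0.49, SE 0.13, limma adjusted p = 0.0242). Neither overlapped. Atp5mc2, the most abundant of the 3, was at 737 TPM in AdMSC 1 and 625 TPM in SyMSC 1, against 732 TPM in PBS 1 and 761 TPM in PBS 2 (log2 change of -0.14, SE 0.14, limma adjusted p = 0.436) and overlapped. Atp5mc1 made up 21.5% and 22.6% of the 3 genes' summed TPM in AdMSC 1 and SyMSC 1, against 15.6% and 16.9% in PBS 1 and PBS 2. Atp5mc2 made up 60.7% and 59.1%, against 71.1% and 69.2%, and Atp5mc3 17.7% and 18.3%, against 13.3% and 13.9%. No share overlapped between the groups. Leaving out PBS 1 ended all 5 calls of the complex (limma adjusted p 0.0595 to 0.185), AdMSC 1 all but Atp5if1 (0.067 to 0.112), PBS 2 all but Atp5mc1 (0.0621 to 0.079), and SyMSC 1 Atp5f1a and Atp5if1 (0.051 and 0.115). Atp5f1a also did not pass without the filter (0.0536) or without the trend and robust options (0.0526).

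The 8 Ndufaf assembly factors were expressed at low levels. They summed to 132 TPM in AdMSC 1 and 117 TPM in SyMSC 1, against 115 TPM in PBS 1 and 137 TPM in PBS 2, with a median log2 change of -0.01, and limma called 0 of 8, also at an unadjusted p under 0.05. The groups overlapped for 7 of the 8. Ndufa4l2, a gene known to respond to low oxygen (NCBI Gene 100362331), was at 89.95 TPM in AdMSC 1 and 92.5 TPM in SyMSC 1, against 108 TPM in PBS 1 and 75.4 TPM in PBS 2 (log2 change of 0.02, SE 0.19, limma adjusted p = 0.944), and the injected libraries lay between the PBS libraries. Its share of the summed Ndufa4 and Ndufa4l2 TPM overlapped as well, at 37.6% and 39.5% in AdMSC 1 and SyMSC 1, against 45.8% and 34.3% in PBS 1 and PBS 2.

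Each cell source was also set against the PBS library of its title word, with no test, since each side had 1 library. A member was listed where the ratio of TPM + 1 reached 1.5 and the larger of both values reached 5 TPM. In AdMSC 1 over PBS 1, 10 members were listed higher (11.2%, against 17.6% of all tested genes) and 4 lower (4.49%, against 16.5%). The 10 were Sdhb, Sdhd, Uqcrfs1, Cox5a, Cox6b1, Cox7a2l2, Atp5f1a, Atp5f1b, Atp5mc1 and Atp5mc3, and the 4 were Cox4i2, Cox6a2, Cox6b2 and Cox8b. In SyMSC 1 over PBS 2, 4 were listed higher (4.49%, against 18.3%), namely Uqcr10, Uqcrfs1, Cox5a and Cox7a2l2, and 3 lower (3.37%, against 18.8%), namely Cox4i2, Cox6b2 and Cox8b. Uqcrfs1 had log2 ratios of 0.67 in the Ad pair and 0.61 in the Sy pair, and Cox5a 0.68 and 0.79. The median log2 ratio of the members was 0.15 in the Ad pair and 0.06 in the Sy pair, against 0.02 and -0.02 over all tested genes. Over the 89 members the ratios of the pairs had a Spearman rho of 0.73, a description over genes of the same libraries. Members above 0 in both pairs numbered 45 (50.6%, against 43.3% of all tested genes) and below 0 in both 23 (25.8%, against 43.3%), and 21 (23.6%) lay on opposite sides, against 13.3% of all tested genes.

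Between the injected libraries and between the PBS libraries few members were listed. Only Uqcr10 was listed higher in SyMSC 1 than in AdMSC 1 (1.12%, against 3.32% of all tested genes), and 0 members were listed lower (against 2.36%). In PBS 1 over PBS 2, Uqcr10, Cox6a2 and Cox8b were listed higher (3.37%, against 2.51%) and Cox7a2l2 lower (1.12%, against 2.08%). SyMSC 1 was below AdMSC 1 for 55 of the 89 members and above it for 34 (38.2%, against 34.3% of all tested genes). The median log2 ratio was -0.05, against -0.09 over all tested genes. PBS 1 was below PBS 2 for 62 of the 89 and above it for 27 (30.3%, against 54.3% of all tested genes). The median was -0.06, against 0.03 over all.

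**Figure D4:**
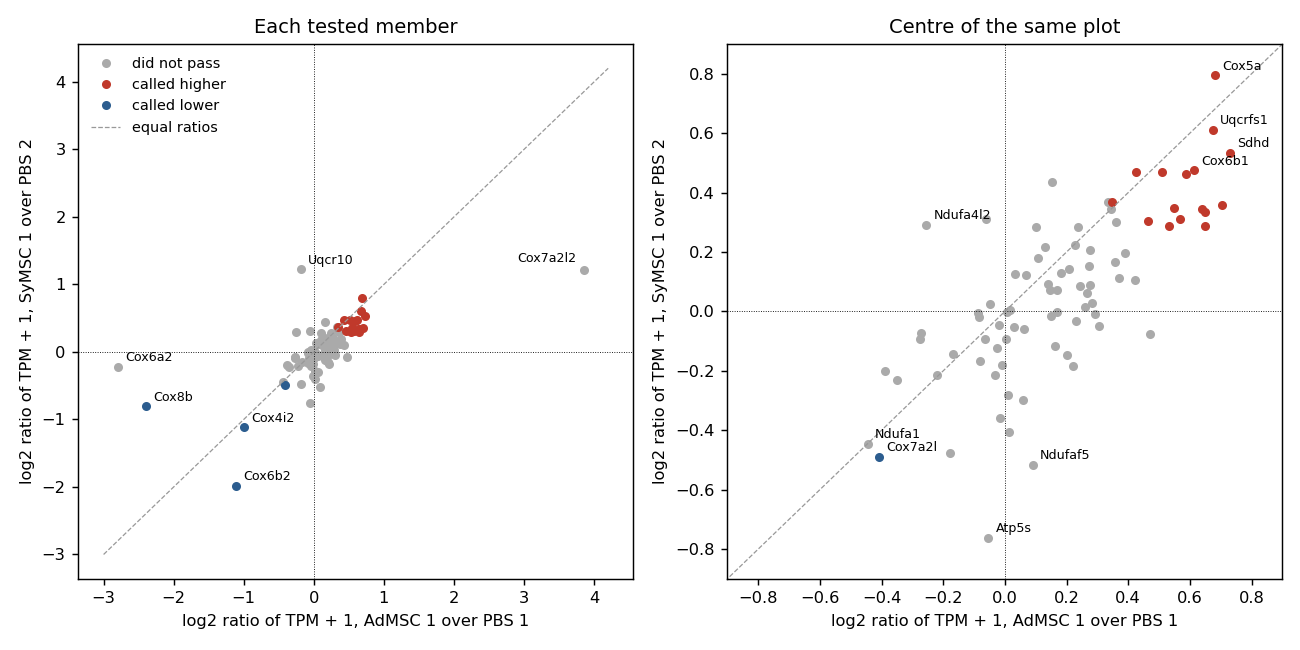
Log2 ratio of TPM + 1 of each tested member in SyMSC 1 over PBS 2 (y axis) against AdMSC 1 over PBS 1 (x axis), coloured by the limma call of injected against PBS; each point is 1 gene and the dashed line marks equal ratios. Cox5a and Uqcrfs1 lie on the upper right in both pairs, Cox4i2, Cox6b2 and Cox8b on the lower left, and Cox6a2 is far lower in the Ad pair (-2.80) than in the Sy pair (-0.22).

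Genes that build, supply or serve the chain were counted in lists of their own. Of 46 assembly factors of the complexes, which include the 8 Ndufaf genes, limma called 3 higher (6.52%, against 23.7% of all tested genes) and 0 lower (against 24.7%). At an unadjusted p under 0.05 the counts were 4 and 2, and the median log2 change was 0.04. Cox17, the copper chaperone of complex IV, stood at 136 TPM in AdMSC 1 and 223 TPM in SyMSC 1, against 82.1 TPM in PBS 1 and 67.0 TPM in PBS 2 (log2 change of 1.22, SE 0.25, limma adjusted p = 0.0122). It rose without overlap, and the injected libraries lay far apart. The call ended without PBS 2 (limma adjusted p = 0.0533). Of 16 tricarboxylic acid cycle and pyruvate dehydrogenase genes 7 were higher (43.75%, against 23.7%) and 0 lower (against 24.7%), with a median of 0.28. At an unadjusted p under 0.05 the counts were 8 and 1. Idh2, mitochondrial isocitrate dehydrogenase, stood at 139.6 TPM in AdMSC 1 and 138 TPM in SyMSC 1, against 76.7 TPM in PBS 1 and 77.1 TPM in PBS 2 (log2 change of 0.84, SE 0.12, limma adjusted p = 0.00234), and Mdh2, malate dehydrogenase, at 358 TPM in AdMSC 1 and 303 TPM in SyMSC 1, against 222 TPM in PBS 1 and 222 TPM in PBS 2 (log2 change of 0.57, SE 0.14, limma adjusted p = 0.0159). Both rose without overlap. The call of Mdh2 ended without AdMSC 1 (limma adjusted p = 0.0566), PBS 1 (0.0671) or PBS 2 (0.0686). Of 25 other electron carriers and exchangers 6 were higher (24%, near the 23.7% of all tested genes) and 2 lower (8%, against 24.7%), with a median of 0.30. Slc25a5, an exchanger of ADP and ATP across the inner membrane, stood at 452 TPM in AdMSC 1 and 388 TPM in SyMSC 1, against 206 TPM in PBS 1 and 210.4 TPM in PBS 2, and rose (log2 change of 1.0, SE 0.13, limma adjusted p = 0.00209). Slc25a4, the exchanger known as the heart and muscle form, stood at 316 TPM in AdMSC 1 and 249.8 TPM in SyMSC 1, against 381 TPM in PBS 1 and 398 TPM in PBS 2, and fell (log2 change of -0.47, SE 0.15, limma adjusted p = 0.0452). The call of Slc25a4 ended without SyMSC 1 (log2 change -0.30, limma adjusted p = 0.170), PBS 1 (0.114) or PBS 2 (0.162), without the filter (0.0765), without the trend and robust options (0.0697) and with the title word as a block (0.0509). The 2 exchangers thus parted, and muscle markers were lower in the same libraries. Within each group Slc25a4 was higher in the library with the lower muscle marker sum. The relation was not tested. Cyc1, the cytochrome c1 subunit of complex III that the symbol rule leaves out, was named after its values were seen. It stood at 109.5 TPM in AdMSC 1 and 101 TPM in SyMSC 1, against 75.2 TPM in PBS 1 and 74.7 TPM in PBS 2, and rose (log2 change of 0.49, SE 0.12, limma adjusted p = 0.0179). Its call ended without AdMSC 1 (limma adjusted p = 0.0537), PBS 1 (0.0934) or PBS 2 (0.1004).

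Of 23 biogenesis and import genes tested 13 were higher and 1 lower, with a median log2 change of 0.50. Esrra, a nuclear receptor known to act on genes of oxidative metabolism, stood at 30.2 TPM in AdMSC 1 and 33.1 TPM in SyMSC 1, against 11.9 TPM in PBS 1 and 12.6 TPM in PBS 2. It rose without overlap (log2 change of 1.30, SE 0.13, limma adjusted p = 0.000941). Tomm20, a receptor of the outer membrane import machinery, was at 219.6 TPM in AdMSC 1 and 217 TPM in SyMSC 1, against 191 TPM in PBS 1 and 219.6 TPM in PBS 2 (log2 change of 0.09, SE 0.13, limma adjusted p = 0.597). The called share of these lists by direction can be read against 23.7% higher and 24.7% lower of all genes. Of 22 glycolysis and low oxygen response genes 18 were higher and 1 lower (median 1.49), a summed level of 19779 TPM in AdMSC 1 and 18857 TPM in SyMSC 1, against 8238 TPM in PBS 1 and 7192 TPM in PBS 2.

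**Figure D5:**
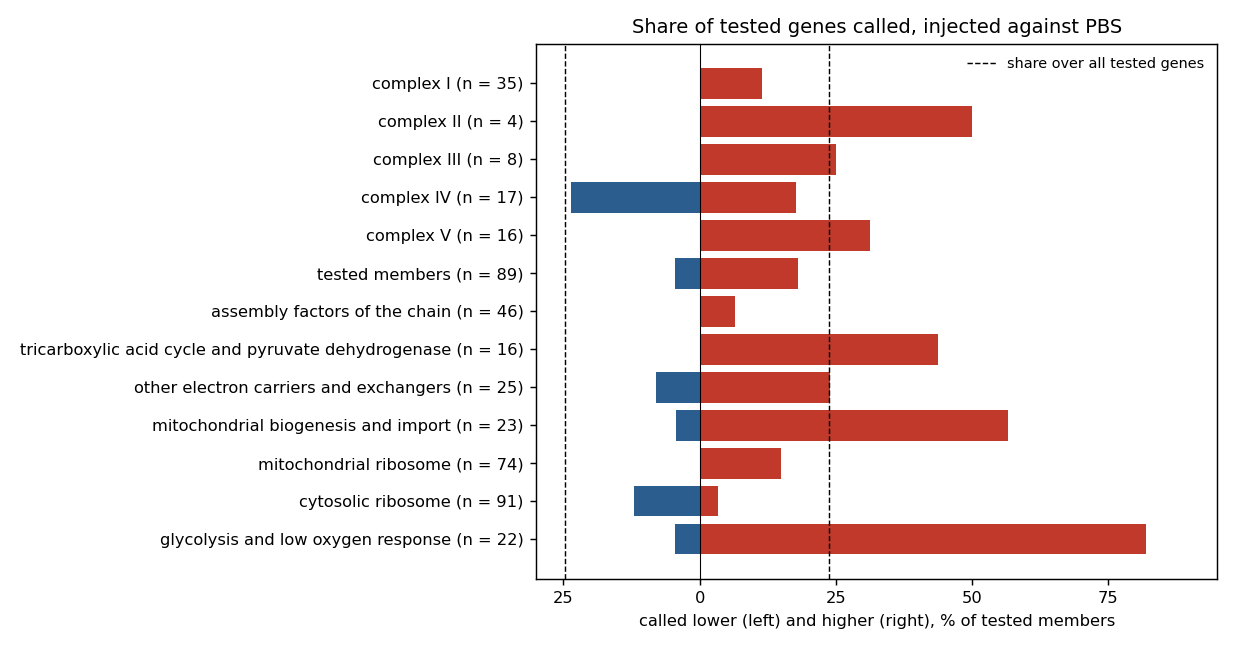
Percent of tested genes called lower (left of 0) and higher (right of 0) by limma, injected against PBS, for each complex, for the tested members and for the lists of related genes; dashed lines mark the shares over all tested genes, 24.7% lower and 23.7% higher. The members reach 18.0% higher and 4.49% lower, and glycolysis and low oxygen response genes 81.8% higher.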

How the data were processed

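The authors deposited 1 table of TPM, per its file header, for 4 bulk libraries of rat synovium. HISAT2 2.0.4 and the build Rnor_6.0 are named in the submitters' processing notes. Not given in the sources used here are the counting tool, the annotation and how human reads were set apart. Of 17899 genes the 13371 that reached 1 TPM in 2 or more libraries were tested as log2(TPM + 1) with limma 3.58.1 in R 4.3.3 (eBayes, trend and robust), injected (n = 2) against PBS (n = 2). P-values were adjusted by Benjamini-Hochberg over all tested genes, with calls under 0.05. Log2 changes are on that scale and understate the change of low genes.

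Members, lists and tests were chosen with earlier results of these data known. Genes were named by rule: per complex up to 3 called genes with the largest rise and 3 with the largest fall, the highest and lowest level, complex II, members below the filter and isoform sets, and at most 2 genes per list. Other genes printed were chosen after their values were seen. The test was also tried on simulated data with 200 changed genes, far fewer than were called here. It therefore does not show how the test behaves on these libraries. Gene IDs matched RefSeq (GRCr8) for 91 of 92 members, used for names and promoters alone. RefSeq names pseudogenes or like genes for 46 members, so reads may have been divided. Alternatives were other scalings (RLE, upper quartile), no filter, a pseudocount of 0.1, the title word as a block, plain eBayes and each library left out.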

Additional observations from a re-analysis of the deposited data

Results flagged for a closer look

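Ndufa4l2, the paralog of Ndufa4 that is known to respond to low oxygen, moved in opposite directions in the pairs of libraries. Its log2 ratio of TPM + 1 was -0.26 in AdMSC 1 over PBS 1 and 0.29 in SyMSC 1 over PBS 2. It is listed because both ratios passed 0.2 in size on opposite sides. With 1 library on each side the difference was not tested. The injected libraries held 89.95 and 92.5 TPM in AdMSC 1 and SyMSC 1 and the PBS libraries 108 and 75.4 TPM in PBS 1 and PBS 2, so the PBS libraries lay further apart than the injected ones.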

How the results depend on the processing

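No called value changed sign under the alternatives, and 3 named members near 0 that were not called did. Ndufa4l2 (0.02) was -0.035 with upper-quartile scaling, -0.0023 without SyMSC 1, and -0.24 to 0.27 without 1 library. Cox4i1 (0.00) was -0.051 with upper-quartile scaling, -0.058 without SyMSC 1, and -0.12 to 0.12 without 1 library. Cox8a (-0.01) was 0.035 with RLE scaling, 0.046 without PBS 1, and -0.11 to 0.087 without 1 library. Members called higher numbered 16, and 10 with plain eBayes, 11 without the filter and 3 to 10 without 1 library; those called lower numbered 4, and 2 to 4 without 1 library. With RLE and upper-quartile scaling, which moved the median of all genes by 0.04 and -0.05, the median log2 change was 0.16 and 0.066 for members, 0.13 and 0.025 for complex I, 0.26 and 0.16 for complex III, and 0.25 and 0.15 for complex V; that of complex IV was 0.10 with upper-quartile scaling. Without 1 library the medians ran from 0.019 to 0.10 (complex I), 0.14 to 0.22 (complex III), 0.046 to 0.16 (complex IV) and 0.16 to 0.24 (complex V). The cause was not tested. Where 1 library was left out, its group kept 1 library, which is taken to vary like the other group. At 2-fold, 4 members were listed for AdMSC 1 over PBS 1 (9 with upper-quartile scaling at 1.5-fold, 14 at first), 4 for SyMSC 1 over PBS 2 (7 at 1.5-fold) and 0 for SyMSC 1 over AdMSC 1. For named members, with plain eBayes not counted, 255 of 315 values kept their direction and their side of the threshold. Of the rest, 9 changed sign, 47 lost their call and 4 gained one. The values include members not called at first, which had no call to lose. Plain eBayes ended the calls of 6 members.

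The labels give no replicate numbers, only a shared title word. Deviations of AdMSC 1 and PBS 1 from their group means correlated at 0.117 over 13371 genes. With the title word as a replicate block 18 members were called higher and 4 lower. Cox8b was then lost, and Ndufa1, Cox5b and Atp5f1d were gained. TPM keep no depth, so the precision of low members cannot be stated.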

Other observations

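The ribosomes of mitochondrion and cytosol, which make the subunits, were set side by side. Of 74 tested mitochondrial ribosomal protein genes limma called 11 higher (14.9%, against 23.7% of all tested genes) and 0 lower (against 24.7%). At an unadjusted p under 0.05 the counts were 18 and 1. The median log2 change was 0.19. Mrpl42 had 203 TPM in AdMSC 1 and 173 TPM in SyMSC 1, against 77.2 TPM in PBS 1 and 86.2 TPM in PBS 2 and rose without overlap (log2 change of 1.19, SE 0.14, limma adjusted p = 0.00141). Mrps6, with the largest called change of the list, had 30.0 TPM in AdMSC 1 and 27.9 TPM in SyMSC 1, against 10.2 TPM in PBS 1 and 13.6 TPM in PBS 2 and rose too (log2 change of 1.23, SE 0.17, limma adjusted p = 0.00237). Of 91 tested cytosolic ribosomal protein genes 3 were higher (3.30%, against 23.7%) and 11 lower (12.1%, against 24.7%), with a median of -0.18. Their summed level was 141219 TPM in AdMSC 1 and 141943 TPM in SyMSC 1, against 157041 TPM in PBS 1 and 173462 TPM in PBS 2, so both injected sums lay below both PBS sums. No test compared the lists.

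Some subunit genes stand in the table under other symbols and were outside the symbol rule. The row that RefSeq names Ndufs6, a complex I subunit, had 35.0 TPM in AdMSC 1 and 38.6 TPM in SyMSC 1, against 26.7 TPM in PBS 1 and 34.4 TPM in PBS 2 (log2 change of 0.27, SE 0.16, limma adjusted p = 0.204). The row that RefSeq names Atp5mk, a small complex V subunit, had 385 TPM in AdMSC 1 and 301 TPM in SyMSC 1, against 330.3 TPM in PBS 1 and 281 TPM in PBS 2 (log2 change of 0.16, SE 0.17, limma adjusted p = 0.459). Neither passed, and only the first had both injected values above both PBS values. These rows were chosen after their values were seen.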
